A study of Mus musculus with 4 samples.

Results

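Interleukin 9 and the cytokines of type 2 immunity were followed at the RNA level in mouse helper T cells with and without the transcription factor gene Batf3. The set comprised 10 genes chosen by symbol from the 25509 genes of the deposited table: Il9, Il4, Il5, Il13, Il3, Csf2, Il10, Il24, Il31 and Areg. Each symbol matched 1 row, and 9 of the 10 genes had enough counts to enter the test. All libraries came from naive CD4+ T cells of the spleen, sorted as CD25-, CD62L high and CD44 low, and activated for 72 h through CD3 and CD28 while exposed to TGFb together with IL-4 and to TL1A. This is the TH9 condition with TL1A, which the treatment tag writes as TLA1. There were 2 WT and 2 Batf3-/- libraries, numbered replicate 1 and replicate 2 in each genotype. No culture without TL1A or of another helper subset was part of the 4 samples. The labels give neither strain, sex nor age, they do not state which exons the Batf3 allele lacks, and they do not say whether the replicates are separate mice. Xist, whose levels are given below, separated replicate 1 from replicate 2 in both genotypes, so the 2 numbers do not hold cells of the same animals alone. The p-values weigh the genotype difference against the spread between the 2 libraries of a genotype, and they speak for these 4 samples only.

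TH9 cells are helper T cells that arise when naive CD4+ T cells are activated in the presence of TGF-beta and IL-4, and they are defined by secretion of IL-9, a growth and survival factor for mast cells and an inducer of mucus production. IL-4, IL-5 and IL-13 are the classical products of TH2 cells: IL-4 drives class switching to IgE, IL-5 supports eosinophils and IL-13 acts on epithelium and smooth muscle. Their genes lie close together beside Rad50, whose introns carry control elements of the locus. IL-3 and GM-CSF (the product of Csf2) act on myeloid progenitors, IL-10 restrains inflammation, IL-24 is an IL-10 family member that signals to epithelial cells, IL-31 acts on sensory neurons in itch, and amphiregulin (Areg) is a ligand of the EGF receptor. BATF3 is a basic leucine zipper factor that pairs with JUN proteins on AP-1 elements, whose core letters are TGANTCA.

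The genes fell into few loci (GRCm38, GENCODE M21 coordinates, all protein coding). Il4 (chromosome 11, 53602982 to 53618669), Il13 (53631324 to 53634702) and Il5 (53720794 to 53725106) followed each other with gaps of 12.7 and 86.1 kb. Csf2 (54247271 to 54249667) and Il3 (54265303 to 54267277) lay 15.6 kb apart and 522 kb further along chromosome 11. Il24 (chromosome 1, 130882074 to 130887454) and Il10 (131019845 to 131024974) were 132 kb apart and about 60.2 and 60.1 Mb from Batf3 on the same chromosome. Il9 lay on chromosome 13 (56479277 to 56482246), and Il31 (123480157 to 123489489) and Areg (91139599 to 91148432) were on chromosome 5. Annotated genes on the opposite strand overlapped Il5, Csf2 and Il31. The strand setting of the counting is not given in the sources used here. The partner of Il31, Lrrc43, had 0 counts in all libraries, and the other 2 are antisense genes that were not analysed here. All 40 estimated counts of the 10 genes were whole numbers.

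Because Il9 was the most abundant of these transcripts, the 250 bases before its start site are printed first, followed by those of Il13 for comparison (RefSeq, GRCm38.p6, both on the minus strand, 5′ to 3′). Capitals mark the AP-1 core TGANTCA, which reads the same on both strands. The Il9 window is chr13:56482258-56482507 and the Il13 window is chr11:53634703-53634952.
Il9: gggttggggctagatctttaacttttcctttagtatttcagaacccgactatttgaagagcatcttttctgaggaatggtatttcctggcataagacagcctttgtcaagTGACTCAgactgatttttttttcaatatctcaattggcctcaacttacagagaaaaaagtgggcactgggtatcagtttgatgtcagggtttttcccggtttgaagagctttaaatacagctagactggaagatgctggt
Il13: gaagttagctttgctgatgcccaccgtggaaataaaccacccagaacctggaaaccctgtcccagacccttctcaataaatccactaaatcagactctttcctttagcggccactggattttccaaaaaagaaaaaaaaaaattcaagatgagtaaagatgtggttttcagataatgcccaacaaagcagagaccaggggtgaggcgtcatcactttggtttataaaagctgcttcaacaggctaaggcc

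Of the 10 genes, 8 had an entry in the promoter table, with 9 windows in all because Il4 has 2 start sites there. The AP-1 core occurred in the Il9 window, as TGACTCA with its first base at -140 from the start site, and in none of the other 8 windows. It was present in 6.75% of the 32851 windows of this length in the table. The GATA letters AGATAA, searched on both strands, occurred in the Il13, Csf2 and Il3 windows and in 9.99% of all windows. The CRE palindrome TGACGTCA occurred in the Areg window and in 1.55% of all windows. These matches describe letters only.

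Across the series, libraries held 15624874 to 31098059 estimated counts, and 12135 genes were tested. Markers of CD4+ T cells were all present, with summed levels of 2003 to 2245 CPM (counts per 1000000 counts of the library, with library sizes adjusted by the TMM method). Of cells other than T cells that make type 2 cytokines, 7 of 9 markers of mast cells or basophils, among them Mcpt8, Cpa3, Fcer1a and Ms4a2, were at 0 in all libraries, and the others, Kit and Hdc, brought the summed level to 2.14 to 5.11 CPM. Among markers of group 2 innate lymphoid cells, Klrg1 had at most 1 count, Il1rl1 stood at 1.26 to 1.79 CPM, Arg1 had 6 to 10 counts, and Il17rb had 1 count in each WT library against 9 and 5 in the Batf3-/- libraries. Their summed level of 550 to 695 CPM came mainly from Thy1 and Rora, which T cells also express. Markers of B cells summed to 9.91 to 13.2 CPM, nearly all from Cd79b, with Ms4a1 at 0. Those of macrophages or dendritic cells summed to 4.99 to 6.69 CPM, led by Cd68, with Lyz2 at 0, and those of NK cells to 2.23 to 2.83 CPM, led by Nkg7, with Ncr1 at 0. Neutrophil markers reached at most 0.0647 CPM. The part of such cells in the cytokine values was not tested. Batf3 itself stood at 61.7 and 60.5 CPM in the WT and 0.535 and 0.517 CPM in the Batf3-/- libraries, so all 4 libraries carried the level their genotype label implies. WT replicate 1 stood apart: its log2 CPM values correlated with those of the other libraries at 0.971 to 0.976 over the tested genes, against 0.981 to 0.982 among the other 3. Sex-linked RNA separated the replicate numbers as well, with Xist at 0.0944 to 0.214 CPM in both replicate 1 libraries and 144 to 166 CPM in both replicate 2 libraries. The summed level of 4 Y-linked genes was 344 and 243 CPM in WT and Batf3-/- replicate 1, and 146 and 182 CPM in WT and Batf3-/- replicate 2. Both replicate 2 libraries thus held Xist and Y-linked RNA together. For this reason each cytokine is given below by library and within each replicate number.

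To compare the output of different cytokine genes, CPM were divided by the length of the longest annotated transcript of each gene in kilobases. Il9 led in every library, at 1825 and 2909 CPM per kb in WT replicates 1 and 2 and at 1739 and 1442 CPM per kb in Batf3-/- replicates 1 and 2. Among all 25509 listed genes it ranked 116 by mean CPM. Il24 and Il13 came next and exchanged places between libraries. Il24 stood at 289 and 274 CPM per kb in the WT libraries and at 304 and 370 in the Batf3-/- libraries. Il13 stood at 164 and 345 CPM per kb in the WT libraries and at 372 and 274 in the Batf3-/- libraries. The order of Il24 and Il13 was thus within their spread in both genotypes. The mean CPM of Il24 ranked 402 among all listed genes. Its family neighbours on chromosome 1 were nearly silent, Il19 with 2 to 8 counts per library and Il20 with 0 counts in 3 libraries and 1 in Batf3-/- replicate 1.

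Below these 3 genes the level dropped. Il5 averaged 45.7 ± 1.74 CPM per kb in WT and 39.9 ± 8.84 in Batf3-/- cells (mean ± SD, n = 2 each, here and below). Il4, whose protein was itself an ingredient of the cultures, averaged 22.7 ± 8.36 and 16.4 ± 1.25 CPM per kb. Il5 was above Il4 in each library. Csf2 averaged 8.01 ± 4.20 and 7.95 ± 4.27 CPM per kb, and Il10 5.55 ± 2.81 and 8.27 ± 0.725. Their ranges overlapped in both genotypes. Within libraries, Csf2 was above Il10 in both WT libraries and in Batf3-/- replicate 1, and below it in Batf3-/- replicate 2. Il31 (3.07 ± 1.14 and 2.52 ± 0.594) was above Il3 (1.70 ± 0.381 and 2.48 ± 0.455) in both WT libraries, while in the Batf3-/- libraries their ranges overlapped. Areg lay at the limit of detection, with 7 counts in WT replicate 2 and 0 elsewhere. A count of 0 allows up to 3 counts, which correspond to 0.129 CPM in WT replicate 1 and to 0.0944 and 0.194 CPM in Batf3-/- replicates 1 and 2, against 0.255 CPM in WT replicate 2. Such limits cover counting error only. A difference in Areg between genotypes was not detectable at this depth.

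**Figure D1:**
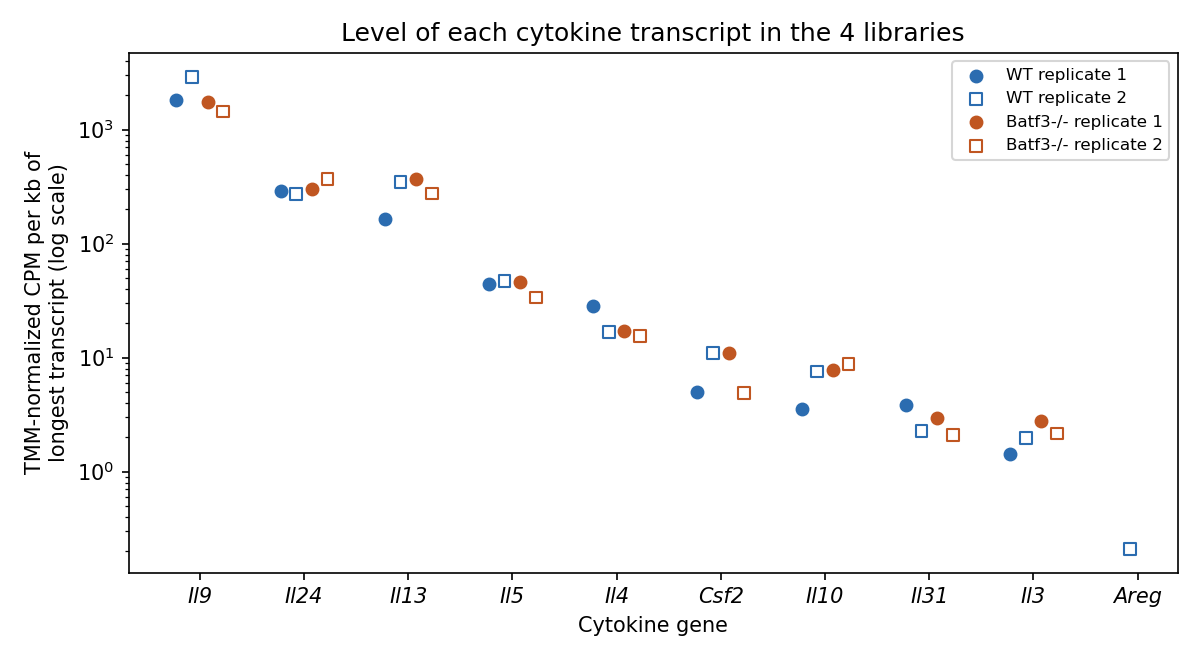
Level of each of the 10 transcripts in the 4 libraries, as TMM-normalized CPM per kb of the longest transcript on a log axis, with genes ordered by their mean. Each symbol is 1 library (blue WT, orange Batf3-/-, filled circles replicate 1, open squares replicate 2), and libraries with 0 counts have no symbol; Il9 lies between 1442 and 2909 in every library, with Il24 and Il13 next.

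Expressed as a share of the summed CPM per kb of the 10 genes, Il9 took 77.2% and 80.5% in WT replicates 1 and 2 and 69.5% and 66.9% in Batf3-/- replicates 1 and 2. Both Batf3-/- libraries were below both WT libraries. Il13 took 6.92% and 9.54% in WT libraries, against 14.9% and 12.7% in Batf3-/- libraries, so there too the genotypes did not overlap. The CPM of 33.8% of all tested genes did not overlap either, but that is another measure. Shares of the same sum are tied to each other, and no such percentage was computed for shares. The CPM of Il13 did overlap between the genotypes. In the replicate 2 libraries the larger share of Il13 went with a lower level of Il13 itself (274 against 345 CPM per kb), beside the lower Il9. In the replicate 1 libraries Il9 was close between the genotypes, at 1739 CPM per kb in Batf3-/- against 1825 in WT. There Il13 differed, at 372 CPM per kb in Batf3-/- against 164 in WT replicate 1, its lowest library. Il24 took 12.2% and 7.57% in WT and 12.1% and 17.2% in Batf3-/- libraries, which overlapped. Il5 took 1.30% to 1.88%, Il4 took 0.465% to 1.21%, and each of the other 5 genes stayed under 0.5% in every library. Without scaling by length the mean share of Il9 was 62.7% in WT and 49.1% in Batf3-/- cells. The 10 genes together made up 0.159% and 0.242% of all counts in the WT and 0.188% and 0.16% in the Batf3-/- libraries. In bulk RNA, fewer producing cells and less RNA per producing cell cannot be told apart.

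**Figure D2:**
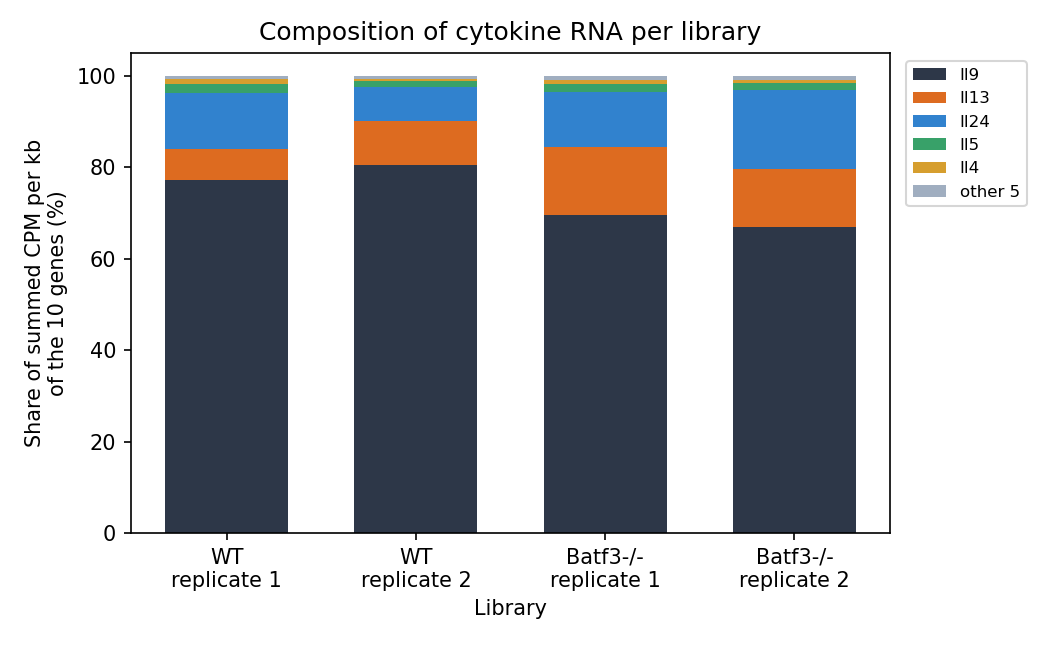
Share of each cytokine transcript in the summed CPM per kb of the 10 genes (vertical axis, percent), 1 stacked bar per library, with the 5 least abundant genes pooled. The Il9 segment is 77.2% and 80.5% in the WT bars and 69.5% and 66.9% in the Batf3-/- bars, while the Il13 segment is larger in both Batf3-/- bars.

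Ratios of 2 cytokines within a library do not depend on how libraries are scaled to each other. Per length, there were 11.2 and 8.43 Il9 transcripts for each Il13 transcript in WT replicates 1 and 2, and 4.68 and 5.26 in Batf3-/- replicates 1 and 2. The lower WT value was 1.6-fold the higher Batf3-/- value. Il13 was the gene that differed more between the replicate 1 libraries, and Il9 between the replicate 2 libraries. For Il9 over Il10 the ratios were 512 and 386 in WT and 224 and 164 in Batf3-/- libraries. The ratio of Il9 to Il5 did overlap, at 41.0 and 61.9 in WT and 37.7 and 42.9 in Batf3-/- libraries. Of the 36 pairs among the 9 tested genes, 14 had ratios that did not overlap between the genotypes, which is 38.9%. Of single tested genes, 33.8% had CPM that did not overlap. That is another measure, the pairs share genes, and no share was computed over pairs of all genes, so the 2 percentages cannot be weighed against each other. The pairs given above were named after their values were seen, and with 2 libraries against 2 an exact permutation test (two-sided) cannot give a p below 0.333.

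Batf3-/- cells were set against WT cells to ask whether cytokine transcripts depend on BATF3 in TH9 cultures. In edgeR's quasi-likelihood test over all 12135 genes, 0 of the 9 tested cytokine genes passed an adjusted p of 0.05, where 0.132% of all tested genes passed. At an unadjusted p under 0.05 there was 1, Il9, where 4.8% of all genes were. DESeq2 and limma-voom also called 0, each with 1 gene at an unadjusted p under 0.05. Of the 9 genes, 5 lay above and 4 below 0 in log2 fold change, with a median of 0.03, beside 48.4% positive and a median of -0.01 over all tested genes. The libraries of the genotypes did not overlap for 4 of the 9 genes, against 33.8% of all tested genes: Il9 was lower and Il3, Il10 and Il24 were higher in both Batf3-/- libraries.

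Il9 stood at 978 and 1559 CPM in WT and at 932 and 773 CPM in Batf3-/- replicates 1 and 2. WT replicate 2 was the highest library, and WT replicate 1 was close to Batf3-/- replicate 1. The log2 fold change in edgeR was -0.57 ± 0.228 (SE), with an adjusted p of 0.898. The log2 ratio of Batf3-/- to WT was -0.07 within replicate 1 (95% counting interval -0.09 to -0.04) and -1.01 within replicate 2 (-1.04 to -0.98), so the lower Il9 lay almost wholly in the replicate 2 pair. Without WT replicate 1 the log2 fold change became -0.88, and without WT replicate 2 it was -0.20. In the 13 other settings tried it stayed below 0, and in those that kept all 4 libraries it ranged from -0.58 to -0.47. The smallest adjusted p among the latter was 0.267 (edgeR with the replicate block). A fit that leaves out a library rests on 1 library of that genotype, which is assumed to vary like the libraries of the other genotype. Such fits also called more genes over the whole series than the main fit did, most of all without WT replicate 2.

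Among the TH2 cytokines, Il13 stood at 197 and 416 CPM in the WT and at 448 and 331 CPM in the Batf3-/- libraries. WT replicate 1 was the low library, and the other 3 lay within 331 to 448 CPM. The log2 ratio was 1.18 within replicate 1 (1.13 to 1.23) and -0.33 within replicate 2 (-0.38 to -0.28). Over all libraries the log2 fold change in edgeR was 0.35 ± 0.321 (SE), with an adjusted p of 0.958. Leaving out WT replicate 1 turned the fold change to -0.10, while leaving out WT replicate 2 raised it to 0.98.

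Il4 went the other way in the same library. It stood at 17.3 and 10.2 CPM in WT and at 10.4 and 9.38 CPM in Batf3-/- replicates 1 and 2, with WT replicate 1 high and the other 3 close together. Its log2 fold change in edgeR was -0.46 ± 0.267 (SE), with an adjusted p of 0.958. Leaving out WT replicate 1 brought the fold change to -0.04, and leaving out WT replicate 2 to -0.80. Per length, Il13 exceeded Il4 by 5.72-fold in WT replicate 1, against 20.5-fold in WT replicate 2 and 21.5- and 17.7-fold in the Batf3-/- libraries. Il5 was steady, at 68.4 and 72.2 CPM in WT and 70.9 and 51.7 CPM in Batf3-/- libraries, with only Batf3-/- replicate 2 lower. Its log2 fold change in edgeR was -0.20 ± 0.199 (SE), with an adjusted p of 0.958. Per length, Il13 exceeded Il5 by 3.68-fold in WT replicate 1, against 7.34-fold in WT replicate 2 and 8.06- and 8.16-fold in the Batf3-/- libraries. Il5 exceeded Il4 by 1.6-fold in WT replicate 1, against 2.8-fold in WT replicate 2 and 2.7- and 2.2-fold in the Batf3-/- libraries. Il4, Il13 and Il5 thus did not move as a block across the libraries, and the departure lay mainly in WT replicate 1. Their neighbour Rad50 stood at a log2 fold change of -0.40 ± 0.195 (SE; edgeR adjusted p = 0.958), with 249 and 294 CPM in WT and 187 and 225 CPM in Batf3-/- libraries, which did not overlap.

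Il10 stood at 4.67 and 9.88 CPM in WT and at 10.2 and 11.5 CPM in Batf3-/- replicates 1 and 2, from 109 to 323 counts. Both Batf3-/- libraries were above both WT libraries, and WT replicate 1 was the low one. The log2 fold change in edgeR was 0.56 ± 0.305 (SE), with an adjusted p of 0.958. The log2 ratio was 1.12 within replicate 1 (0.80 to 1.45) and 0.22 within replicate 2 (-0.06 to 0.50). Leaving out WT replicate 1 reduced the log2 fold change to 0.12, and leaving out WT replicate 2 raised it to 1.21. Il24, encoding the other IL-10 family member of the set, was the most even of the abundant transcripts, at 342 and 324 CPM in WT and 359 and 438 CPM in Batf3-/- libraries. Its log2 fold change in edgeR was 0.26 ± 0.193 (SE), with an adjusted p of 0.958, and the fold change stayed between 0.11 and 0.40 over the 13 other settings.

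The myeloid growth factor genes were low. Csf2 stood at 4.03 and 8.78 CPM in WT and at 8.78 and 3.94 CPM in Batf3-/- replicates 1 and 2, so that the genotypes had the same 2 levels in crossed order. Its log2 ratio was 1.12 within replicate 1 (0.78 to 1.48) and -1.15 within replicate 2 (-1.58 to -0.74), and the log2 fold change over all libraries was 0.03 (SE 0.417, adjusted p = 0.992, edgeR). Il3, its neighbour, had 21 and 34 counts in the WT and 56 and 21 in the Batf3-/- libraries, or 0.9 and 1.24 against 1.76 and 1.36 CPM. Its log2 fold change in edgeR was 0.57 ± 0.440 (SE), with an adjusted p of 0.958. Il31 counts were 89 and 61 for WT against 92 and 32 for Batf3-/- (3.82 and 2.22 against 2.9 and 2.07 CPM), and edgeR gave -0.23 ± 0.370 (SE) on the log2 scale with an adjusted p of 0.967. Both replicate 1 libraries were above both replicate 2 libraries for Il31.

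**Figure D3:**
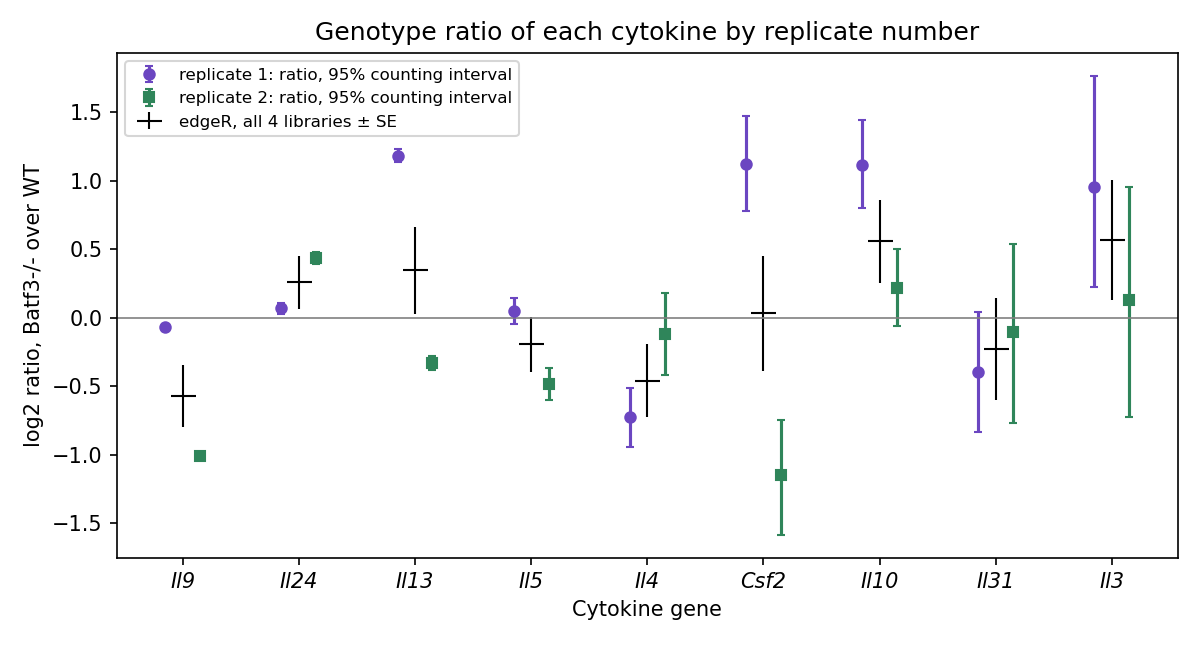
Log2 ratio of Batf3-/- to WT for the 9 tested cytokine genes (vertical axis), within replicate 1 (purple circles) and replicate 2 (green squares) with 95% counting intervals, and from edgeR over all 4 libraries (black, ± SE). Il9 is at -0.07 and -1.01 in the replicate 1 and 2 pairs, Il13 at 1.18 and -0.33, and Csf2 at 1.12 and -1.15.

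The replicate pairs differed by at least 1 in log2 ratio for 2 of the 9 genes, Il13 and Csf2, where 8.13% of all tested genes did. They had opposite signs for 3 of 9, Il5, Il13 and Csf2, where 44.9% of all tested genes did. The WT libraries were at least 2-fold apart for Il13, Csf2 and Il10, 3 of 9 against 5.77% of all tested genes, and in each case WT replicate 1 was the lower. The Batf3-/- libraries were at least 2-fold apart for 1 of 9, Csf2, against 3.48%. No test of the difference between replicate pairs can be had with 1 library per genotype and number. Whether the departure of WT replicate 1 contributed to these values was not tested beyond leaving it out.

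**Figure D4:**
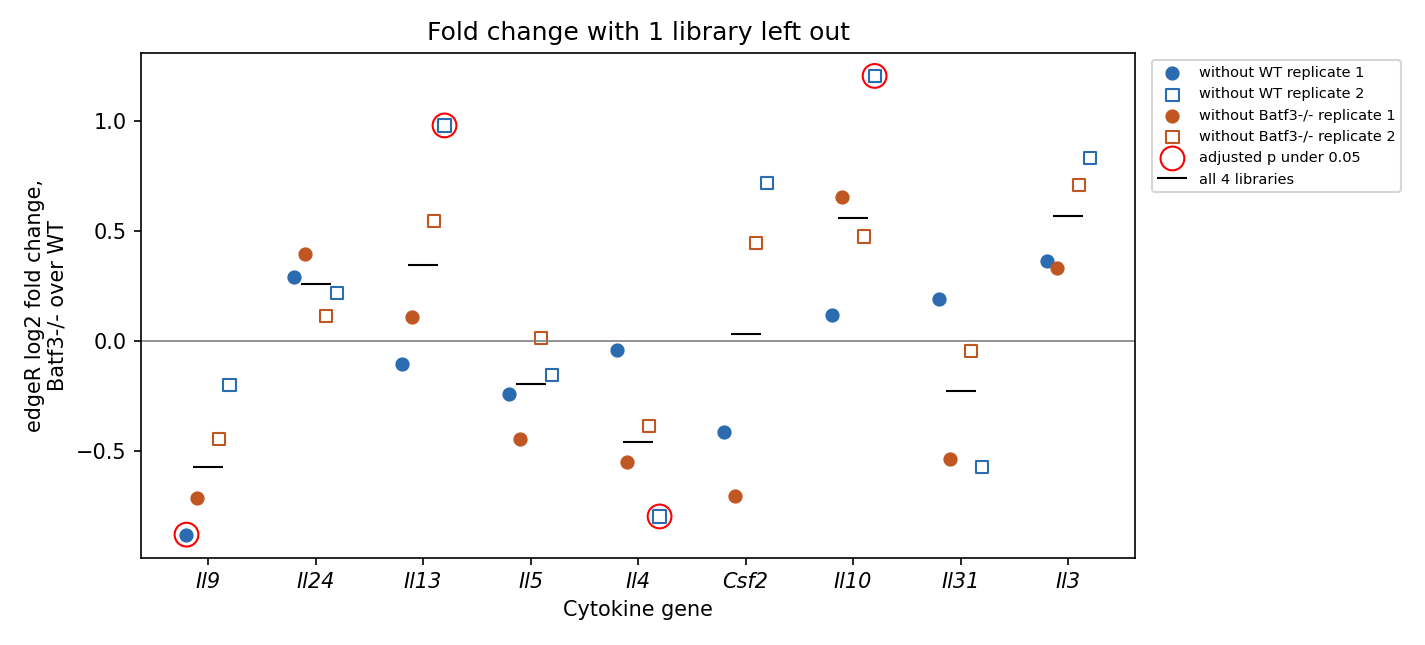
edgeR log2 fold change of each tested cytokine gene (vertical axis) after leaving out 1 library (blue, a WT library; orange, a Batf3-/- library; filled circles, replicate 1; open squares, replicate 2), with black bars for all 4 libraries and red rings for an adjusted p under 0.05. Rings appear at Il9 without WT replicate 1 and at Il13, Il4 and Il10 without WT replicate 2. Over all genes the most calls also came without WT replicate 2.

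Among other genes of the pathway, 9 of 18 listed receptor subunits for these cytokines could be tested, and the others had few or no counts. Il4ra, Il2rg and Il10ra were abundant over the 4 libraries, at 406 to 554, 329 to 386 and 158 to 181 CPM. Of the 9 tested, 8 had positive log2 fold changes, where 48.4% of all tested genes did, with a median of 0.21. In edgeR 0 passed, where 0.132% of all tested genes did, and 2 had an unadjusted p under 0.05, where 4.8% did. These were Il3ra, the IL-3 receptor alpha chain, at 5.49 and 7.51 CPM in WT and 11.3 and 10.4 CPM in Batf3-/- libraries (log2 fold change 0.74, SE 0.262, adjusted p = 0.814, edgeR), and Il9r, the IL-9 receptor, with counts of 16 and 12 for WT against 56 and 15 for Batf3-/- (1.39, SE 0.527, adjusted p = 0.850, edgeR). Il3ra passed without WT replicate 2 (adjusted p = 0.0384, edgeR). Il5ra had 0 counts in every library.

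Of 44 listed regulators of these cytokine genes, 42 were tested, and 19 were positive and 23 negative with a median of -0.02. In edgeR 1 passed, where 0.132% of all tested genes did. That was Batf3, the gene altered by the genotype, so its call was given by the design. At an unadjusted p under 0.05 there were 6 of the 42, where 4.8% of all tested genes were: Batf3 and, named here after their values were seen, Junb, Jund, Vdr, Erg and Gfi1. Junb, an AP-1 subunit, stood at 315 and 527 CPM in WT and at 854 and 747 CPM in Batf3-/- libraries (log2 fold change 0.93, SE 0.230, adjusted p = 0.252, edgeR). Jund, another JUN family member, stood at 127 and 213 CPM in WT and at 312 and 262 CPM in Batf3-/- libraries (0.75, SE 0.227, adjusted p = 0.534, edgeR). For both genes the genotypes did not overlap and WT replicate 1 was the lowest library. The log2 fold changes of Junb and Jund were 0.59 and 0.42 without WT replicate 1, and 1.35 and 1.17 without WT replicate 2. Both passed with the replicate number as a block (adjusted p = 1.82e-04 and 0.00262, edgeR), and Junb also with DESeq2 (0.0439). With offsets for transcript GC content their log2 fold changes were 0.53 and 0.17, and neither passed. Vdr, the vitamin D receptor gene, had a log2 fold change of 0.74 (SE 0.212), Erg, an ETS family factor gene, -0.87 (SE 0.289) and Gfi1, encoding a zinc finger repressor, 0.46 (SE 0.199), with adjusted p of 0.429, 0.708 and 0.958 in edgeR. Vdr passed without WT replicate 2 (0.0316) and with the block (0.0410), and Erg without WT replicate 1 (0.00204).

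Of the regulators chosen for description whatever their p, Irf4 and Batf, which form the composite complexes of TH9 cells, had log2 fold changes of -0.08 (SE 0.205) and 0.10 (SE 0.188). Gata3, the TH2 regulator, had 0.29 (SE 0.196), and Stat6, which relays IL-4 signals, had 0.13 (SE 0.190). Maf, an activator of Il4 and Il10, stood at -0.07 (SE 0.204). Nfil3 and Bhlhe40, regulators of cytokine output, stood at 0.27 (SE 0.182) and -0.06 (SE 0.195). Of 31 other cytokine genes, 16 were tested and 10 were positive, where 48.4% of all tested genes were, with a median of 0.04. In edgeR 0 passed, where 0.132% of all tested genes did, and 2 had an unadjusted p under 0.05, where 4.8% did. These were Il22 (log2 fold change 2.07, SE 0.428, adjusted p = 0.0733, edgeR) and Lif, a cytokine of the IL-6 family (0.46, SE 0.192, adjusted p = 0.958, edgeR). Il22 was a low transcript, with estimated counts of 14 and 40 for WT against 172.86 and 48 for Batf3-/-. In CPM these were 0.6 and 1.46 against 5.44 and 3.1. Batf3-/- exceeded WT by a log2 ratio of 3.14 within replicate 1, but only by 1.08 within replicate 2. Il22 passed without WT replicate 2 (adjusted p = 4.32e-04, edgeR), without Batf3-/- replicate 2 (0.00151) and with the block, alone or with GC offsets (7.62e-05 and 6.54e-06), and Lif passed without WT replicate 2 (0.0486). Of 26 genomic neighbours of the cytokine genes, 16 were tested and 6 were positive, where 48.4% of all tested genes were, with a median of -0.05. In edgeR 0 passed, where 0.132% of all tested genes did, and 1 had an unadjusted p under 0.05, where 4.8% did. That was Pigr, the polymeric immunoglobulin receptor gene near Il24, with counts of 18 and 49 for WT against 92 and 37 for Batf3-/- (log2 fold change 1.04, SE 0.420, adjusted p = 0.917, edgeR). It passed without WT replicate 2 (adjusted p = 0.0330, edgeR). Ereg, the EGF family neighbour of Areg, had 0 counts in every library.

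Genes whose log2 CPM profile over the 4 libraries lay nearest to that of Il9 were sought among 5467 tested genes whose mean log2 CPM reached 5, by the root-mean-square distance between profiles centred on their means. The nearest were Trp53bp2 at a distance of 0.12, Antxr2 at 0.14, Gm20388 at 0.15, Ints7 at 0.18 and Dennd5a at 0.20. Trp53bp2 encodes a p53-binding protein and Ints7 a subunit of the Integrator complex. Both lie on chromosome 1, and Ints7 (191575636 to 191623688) is a near neighbour of Batf3. Gm20388 is a predicted gene whose annotated span, 119910841 to 124345722, is several Mb long and overlaps others, so its value is uncertain. Among the cytokine genes the nearest to Il9 was Il5 at 0.27, and the others were at 0.44 to 0.64, beside a median of 0.42 over all tested genes. With 4 libraries such a likeness is a description of these samples.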

How the data were processed

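RNA was sequenced from 4 cultures of sorted mouse CD4+ T cells, 2 per genotype, as stranded poly-A libraries per the labels' protocols. The deposited values are expected counts (RSEM estimates per gene, not scaled between libraries); the submitters' processing notes name GRCm38, RSEM 1.2.25 and STAR 2.5.0 as what the authors used, and the annotation release is not given in the sources used here. The 92 spike-in rows were 0 throughout and left out.

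Rounded counts were tested two-sided for genotype alone by edgeR 4.0.16 (R 4.3.3) with its quasi-likelihood functions (legacy=FALSE, robust; common biological coefficient of variation 0.171), after filterByExpr (minimum count 10, minimum total 15) and TMM scaling. P-values were adjusted by Benjamini-Hochberg over every tested gene, with a threshold of 0.05. The standard error is the log2 fold change divided by the root of F. Levels are CPM on effective library sizes, and ratios within replicate numbers add a prior count of 0.5, with exact 95% intervals for counting error only. Transcript lengths and positions came from GENCODE M21 and promoter windows from RefSeq GRCm38.p6. Replicates differed far beyond sampling noise (chi-square per degree of freedom 66.3 in WT and 24.0 in Batf3-/-), so all were kept as separate samples.

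Alternatives were other scalings and filters, DESeq2 1.42.0, limma-voom (limma 3.58.1), leaving out each library, the replicate number as a block, and GC offsets (12105 of 12135 tested genes had a transcript GC). Named genes were all 10 cytokines, a fixed set of 8 regulators and 4 neighbours (Rad50, Il19, Il20 and Ereg), called genes of each list or else the 2 with the smallest p, and the 5 profiles nearest to Il9; marker genes, pairs of cytokines and 5 further regulators were picked with their values in view. The cytokine genes and lists were chosen with earlier results of these data known.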

Additional observations from a re-analysis of the deposited data

How the results depend on the processing

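Over 13 other settings, the log2 fold changes of the 9 tested cytokine genes kept their sign and their side of the threshold in 107 of 117 values, gained a call in 4 and changed sign in 6. The cytokines called, 0 of 9 with all libraries, ranged from 0 to 3 without 1 library. The gained calls were Il9 without WT replicate 1, and Il4, Il13 and Il10 without WT replicate 2. The sign changed for Il5 without Batf3-/- replicate 2 (0.0139), for Il13 and Il31 without WT replicate 1 (-0.10 and 0.19), and for Csf2 with DESeq2 (-0.0059) and without WT replicate 1 or Batf3-/- replicate 1 (-0.42 and -0.71). Over single libraries left out, the fold changes ranged from -0.88 to -0.20 for Il9, -0.80 to -0.04 for Il4, -0.44 to 0.01 for Il5, -0.10 to 0.98 for Il13, -0.71 to 0.72 for Csf2, 0.12 to 1.21 for Il10 and -0.57 to 0.19 for Il31. Over all genes, 10 higher and 6 lower calls became 11 to 301 and 7 to 252 without 1 library; DESeq2 gave 21 higher. The most calls, both higher and lower, came without WT replicate 2. The cause of these moves was not tested.

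Same-numbered libraries of the genotypes share a prefix in their titles and, as given above, a like Xist level, but the labels do not say what prefix or number stands for. The replicate 1 minus replicate 2 differences of the genotypes correlated at 0.107 (Pearson) and 0.180 (Spearman) over 12135 genes, which are not independent replicates. With the replicate block there were 81 higher and 31 lower genes, and with the block and GC content offsets 55 and 33. In both, and in the fit without Batf3-/- replicate 2, edgeR's prior degrees of freedom were infinite at the median gene. With the block, alone or with GC offsets, 0 cytokine genes were called. With the block alone 3 of 9 (Il9, Il13 and Il10) had an unadjusted p under 0.05 in edgeR, where 677 higher and 348 lower of all 12135 genes did. With GC offsets as well there were 4 of 9, with Il24 added, where 349 higher and 281 lower of 12105 genes were. The log2 fold change of Il9 was -0.54 with the block and -0.47 with GC offsets as well.

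With the median transcript length, mean shares were 76.4% (Il9 in WT), 65.1% (Il9 in Batf3-/-) and 18.4% (Il24 in Batf3-/-). With no length scaling they were 62.7% and 49.1% for Il9, 14.8% and 22.4% for Il13 and 17.3% and 23.2% for Il24 in WT and Batf3-/-. Without 1 library the Il9 share was 77.2% to 80.5% in WT and 66.9% to 69.5% in Batf3-/-. Depth limits Areg and widens the intervals of Il3 and Il31; Areg was fitted only without a filter. The same settings were tried on the genes of the other lists with an unadjusted p under 0.05, a choice made after seeing the data; none of them changed sign.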
